A study of Homo sapiens with 6 samples.

Results

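The genes described here encode proteins that work beside SF3B1 when the spliceosome recognises the branch point and the 3′ splice site of an intron, but that are not subunits of the SF3a or SF3b complexes. There are 10 of them among 62111 gene IDs: SUGP1, DHX15, GPATCH8, DDX42, DDX46, U2AF1, U2AF2, ZRSR2, SF1 and PUF60. They were listed by symbol and not by a cut on their values, but with earlier results of these data known. All 10 were found in both deposited tables, which give TPM (reads per gene divided by gene length and scaled to 1000000 per library). RNA came from K562 cells, a human chronic myeloid leukaemia line, in 3 libraries with wild-type SF3B1 (WT) and 3 with the SF3B1 substitution K700E, and the labels give no drug or time point. How the substitution was introduced, whether the mutant cells are 1 clone and whether the replicates are separate cultures are not given in the labels, so a p-value here reflects library-to-library spread, which may be technical. Gene values hold no splice junctions.

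At the start of splicing, SF1 binds the branch point, U2AF2 the polypyrimidine tract and U2AF1 the AG at the 3′ splice site. SF1 then leaves and the U2 snRNP, with SF3B1, takes the branch point with the help of RNA helicases. SUGP1 is a G-patch protein, a class that activates helicases of the DHX15 type, and K700E is known to weaken the contact between SF3B1 and SUGP1.

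The libraries held 104642332 to 136588117 recovered read ends each. Erythroid markers fitted the K562 label, with all 10 above 1 TPM on average and sums of 3317 to 5690 TPM in WT and 4088 to 8313 TPM in K700E. Of 5 lymphoid markers 2 reached 1 TPM on average, and they summed to 101 to 107 TPM in the WT libraries and 198 to 365 TPM in the K700E libraries. Among them MS4A1 was under 0.1 TPM in every library and CD3D rose from a mean of 99.8 to 289 TPM (limma adjusted p 0.0289). CD3D made up most of the sum in both groups. The other lymphoid marker that reached 1 TPM had a log2 difference of -0.10, against 1.48 for CD3D. Of 5 myeloid markers 1 reached 1 TPM, with MPO and ELANE under 0.1 TPM, and the sums were 112 to 126 TPM for WT and 65.3 to 175 TPM for K700E. The marker that reached 1 TPM made up nearly all of these sums, at 112 to 125 TPM for WT and 64.6 to 174 TPM for K700E. Of 5 stromal and epithelial markers 4 reached 1 TPM, with sums of 154 to 254 TPM for WT and 201 to 276 TPM for K700E. Among them COL1A2 averaged 0.0423 TPM over the WT libraries and 3.84 TPM over the K700E libraries, and entered the tested genes only through its K700E level. The part of these marker levels in the differences between genotypes was not tested. In bulk RNA, fewer cells of a type and less RNA per cell cannot be told apart. A pair of WT libraries stood apart. WT replicate 3 lay between the other WT libraries in 75.9% of 15493 tested genes (WT replicate 1 in 10.2% and WT replicate 2 in 13.9%), and in 8 of the 9 branch point genes tested. WT replicate 1 differed from the others in step with GC content, as described below.

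U2AF1, which reads the AG of the 3′ splice site, was listed at 0 TPM in every one of the 6 libraries and could not be compared. Its gene model (ENSG00000160201, GRCh37 chromosome 21, 44513066 to 44527680, minus strand) has 1862 exonic bases, and all of them lay under the exons of a second gene ID on the same strand, ENSG00000275895, itself at 0. The same held wherever a gene model was fully covered. All 1016 genes whose every exonic base lay under another gene on the same strand were at 0 in all 6 libraries, and so were all 595 genes fully covered on the opposite strand only. Of 46658 genes with no covered base, 41.2% were at 0. Gene models fully covered by another thus have no reads in the deposited values, on either strand, and the 0 of U2AF1 is not a measurement of its RNA.

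The second gene ID, labelled as the second copy of U2AF1 below, carries a coding sequence of U2AF1. GENCODE 29 places these gene IDs apart on chromosome 21 of GRCh38, and whether the genome holds a true second copy was not tested. In its transcripts, a coding sequence of 720 bases from U2AF1 and its counterpart from the second gene ID differed at 0 positions. Bases 1 to 150 of this pair are shown for each to make the match visible, with the start codon in capitals.

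U2AF1: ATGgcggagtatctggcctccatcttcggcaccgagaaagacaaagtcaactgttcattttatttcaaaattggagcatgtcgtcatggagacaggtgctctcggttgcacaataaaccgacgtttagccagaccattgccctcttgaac

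second copy of U2AF1: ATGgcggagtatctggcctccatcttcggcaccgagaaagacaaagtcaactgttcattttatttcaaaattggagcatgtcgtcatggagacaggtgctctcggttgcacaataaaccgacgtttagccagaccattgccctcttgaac

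The other 9 genes were free of this overlap, apart from 2.21% of the exonic bases of U2AF2, which lay under an antisense gene. Each was backed by at least 1932 read ends per library (the lowest, for ZRSR2 in K700E replicate 1).

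In WT cells the 9 measured genes fell into a high and a low tier. DHX15, SF1, U2AF2, DDX42 and PUF60 had mean levels of 169, 165, 120.3, 117 and 108 TPM, and each of these neighbours overlapped the next over the 3 libraries. DDX46 (44.2 TPM), GPATCH8 (36.6 TPM), SUGP1 (28.95 TPM) and ZRSR2 (21.1 TPM) followed, with no overlap between neighbours and a gap below PUF60. TPM divides reads by gene length, here that of all annotated exons merged, and makes no allowance for GC content. The 9 genes ran from 35.2% (DHX15) to 62.6% GC (PUF60), so the order between genes is approximate. In K700E cells the order was the same except for SUGP1 (43.2 TPM), which stood beside GPATCH8 (42.8 TPM) with overlapping libraries. There DHX15 lay clear above SF1 and SF1 clear above U2AF2, and DDX46 (68.3 TPM) stayed apart from the genes on either side. All 9 genes lay above the middle of the tested genes in level, from the percentile 62.6 (ZRSR2) to 95.4 (DHX15).

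**Figure D1:**
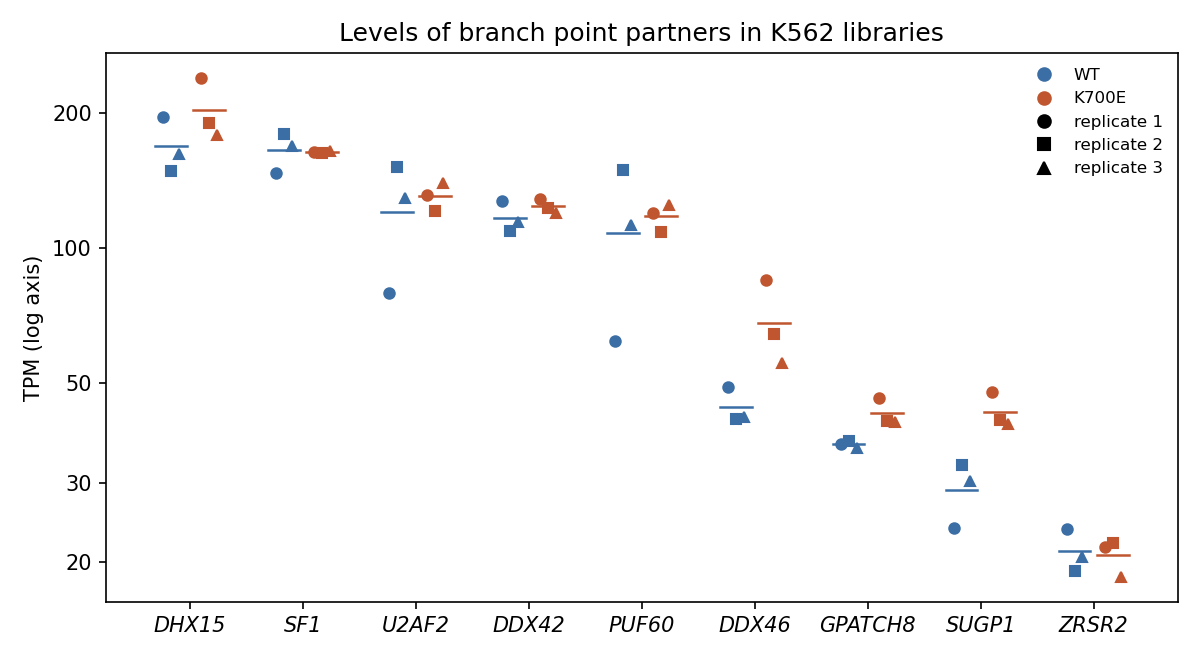
TPM on a log axis for each of the 9 measured genes, with 1 point per library (blue WT, orange K700E, marker shape for replicate number) and a line at each group mean. DDX46, GPATCH8 and SUGP1 are the genes whose K700E points all lie above their WT points, and PUF60 and U2AF2 show WT replicate 1 far below the other WT libraries.

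None of the 9 tested genes passed the threshold between genotypes (limma on log2(TPM + 1), Benjamini-Hochberg adjusted p under 0.05 over 15493 genes). Over all tested genes 1.38% were called, 1.15% higher and 0.232% lower in K700E, so a count of 0 among 9 genes is near the background. At an unadjusted p under 0.05 there were 2 of the 9, SUGP1 and DDX46, beside 2563 of all 15493 tested genes. The groups did not overlap in 3 of the 9 genes, against 24.0% of all tested genes. In all 3 K700E was above WT (19.0% of all tested genes), and in 0 of the 9 it was below WT (4.99%). The median log2 difference of the 9 was 0.21, beside 0.13 over all genes tested, and 6 of the 9 lay above that median gene. TMM scaling, which evens out differences in composition between libraries, moved the median gene to -0.01. The differences of the 9 genes and the list medians are therefore also given relative to the median gene or with TMM scaling. Those of other single genes are mostly given as deposited.

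SUGP1 (ENSG00000105705, GRCh37 chromosome 19, 19386842 to 19431318, minus strand, 14 merged exons) carries the G-patch described above. WT replicates 1, 2 and 3 had 23.8, 32.8 and 30.2 TPM, and K700E replicates 1, 2 and 3 had 47.8, 41.3 and 40.5 TPM. All K700E libraries were above all WT libraries, and the nearest were 7.67 TPM apart. The ratio of the means was 1.49. The log2 difference was 0.57 (SE 0.16, 95% interval 0.19 to 0.95), or 0.44 above the median gene, with a limma adjusted p of 0.148 (unadjusted 0.00877). It lay at the percentile 91.7 of all log2 differences. Over the fits that left out 1 library the log2 difference ran from 0.44, without WT replicate 1, to 0.66, and the limma adjusted p from 0.132 to 0.445, the last without WT replicate 3. WT replicate 1 was 0.39 log2 units below the other WT libraries at this gene, which has a GC content of 57.8%. With a correction for GC content the log2 difference was 0.42 and the limma adjusted p 0.0794, the lowest over 18 alternatives, in which it reached 0.445. TMM scaling, which has no GC term, also gave a log2 difference of 0.42 (limma adjusted p 0.297).

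DDX46, the human relative of the yeast helicase Prp5 that opens the way for U2 snRNP at the branch point, had a log2 difference of similar size. The WT libraries, in the order of replicates used throughout, had 49.1, 41.5 and 42.0 TPM, against 84.8, 64.5 and 55.5 TPM with K700E (ENSG00000145833, GRCh37 chromosome 5, 134094461 to 134166811, plus strand). Again every K700E library was above every WT library, and the K700E libraries were spread 1.53-fold between the highest and the lowest. The log2 difference was 0.60 (SE 0.18, 95% interval 0.18 to 1.02) and the limma adjusted p 0.167. Its GC content, 38.7%, is on the other side of the middle from that of SUGP1, and WT replicate 1 was here 0.23 log2 units above the other WT libraries. The log2 difference was 0.43 without K700E replicate 1, the highest library, and 0.67 without WT replicate 1. TMM scaling gave 0.44 and GC correction 0.46, with limma adjusted p of 0.229 and 0.101, and over 18 alternatives it ran from 0.101 to 0.516.

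DDX42, the other DEAD-box helicase that binds SF3B1, had overlapping groups. Its WT libraries had 127, 109 and 114 TPM and its K700E libraries 129, 123 and 119.7 TPM (ENSG00000198231, GRCh37 chromosome 17, 61851223 to 61896677, plus strand). The log2 difference of 0.08 (SE 0.12, 95% interval -0.19 to 0.36, limma adjusted p 0.769) was -0.04 relative to the median gene and turned to -0.07 with TMM scaling. Whether DDX42 and DDX46 differ in their response was not tested.

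DHX15, the DEAH-box helicase that SUGP1 is known to bring to the spliceosome, was the highest of the 9. The WT libraries had 196, 149 and 162 TPM, and those with K700E had 239.7, 190.2 and 179 TPM (ENSG00000109606, GRCh37 chromosome 4, 24529098 to 24586177, minus strand). K700E replicates 2 and 3 lay below WT replicate 1, so the groups overlapped. The log2 difference was 0.26 (SE 0.16, 95% interval -0.12 to 0.64, limma adjusted p 0.482), and 0.11 with TMM scaling. DHX15 has the lowest GC content of the 9, 35.2%, and WT replicate 1 was 0.33 log2 units above the other WT libraries at it.

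GPATCH8, a G-patch protein that works with DHX15, was the steadiest gene within WT. Values of 36.6, 37.2 and 35.9 TPM in the WT libraries faced 46.3, 41.2 and 41.1 TPM in the K700E libraries (ENSG00000186566, GRCh37 chromosome 17, 42472649 to 42580774, minus strand). The groups did not overlap and lay 3.85 TPM apart. The log2 difference of 0.22 (SE 0.12, 95% interval -0.07 to 0.51, limma adjusted p 0.426) was 0.07 with TMM scaling and 0.07 with GC correction. Relative to the median gene it was 0.09.

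**Figure D2:**
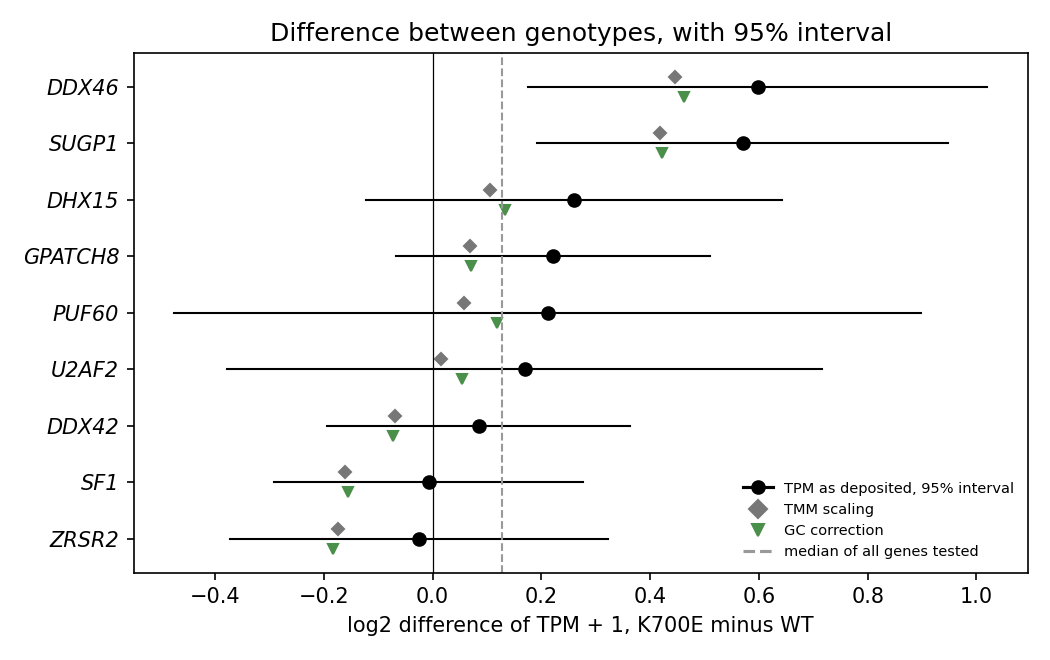
Log2 difference of TPM + 1 between K700E and WT for the 9 measured genes (black points, 95% intervals from limma), with TMM scaling (grey diamonds) and GC correction (green triangles), and the median gene as a dashed line. The intervals of DDX46 and SUGP1 lie above 0 before adjustment over all genes, and DDX42 changes sign with either alternative.

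SF1, which holds the branch point before U2 snRNP does, had 147, 179.7 and 169 TPM in the WT libraries, and 164, 163 and 165 TPM in the K700E libraries (ENSG00000168066, GRCh37 chromosome 11, 64532078 to 64546258, minus strand). The K700E libraries lay inside the range of WT. The log2 difference was -0.01 (SE 0.12, 95% interval -0.29 to 0.28, limma adjusted p 0.984), and -0.16 with TMM scaling. The 1.01-fold range over the K700E libraries was narrower than the 1.22-fold range over WT, where WT replicate 1 was the lowest.

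U2AF2, the large U2AF subunit, and PUF60, a related protein that binds uridine-rich tracts, varied most within WT of the 9. U2AF2 (ENSG00000063244, GRCh37 chromosome 19, 56165512 to 56186082, plus strand) had 79.5, 152 and 129 TPM in the WT libraries, and 131, 121 and 139.9 TPM in the K700E libraries. PUF60 (ENSG00000179950, GRCh37 chromosome 8, 144898514 to 144911522, minus strand) had 62.2, 149 and 112 TPM in the WT libraries, and 119.9, 109 and 125 TPM in the K700E libraries. In both genes the K700E libraries lay within the WT range, which spanned 1.91-fold for U2AF2 and 2.40-fold for PUF60. The log2 difference was 0.17 (95% interval -0.38 to 0.72, limma adjusted p 0.767) for U2AF2. It was 0.21 (95% interval -0.47 to 0.90, limma adjusted p 0.768) for PUF60. With TMM scaling these were 0.02 and 0.06, and relative to the median gene 0.04 and 0.08. Without WT replicate 1 they turned to -0.10 and -0.14.

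ZRSR2, the relative of U2AF1 that reads 3′ splice sites of U12-type introns, was the lowest of the 9. Its WT libraries had 23.7, 19.1 and 20.5 TPM and its K700E libraries 21.5, 22.0 and 18.5 TPM (ENSG00000169249, GRCh37 chromosome X, 15808595 to 15841383, plus strand). The groups overlapped throughout, with a log2 difference of -0.03 (SE 0.15, 95% interval -0.37 to 0.32, limma adjusted p 0.952), and -0.17 with TMM scaling. Its intronless copy ZRSR2P1 can share reads with it and was not analysed here.

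**Figure D3:**
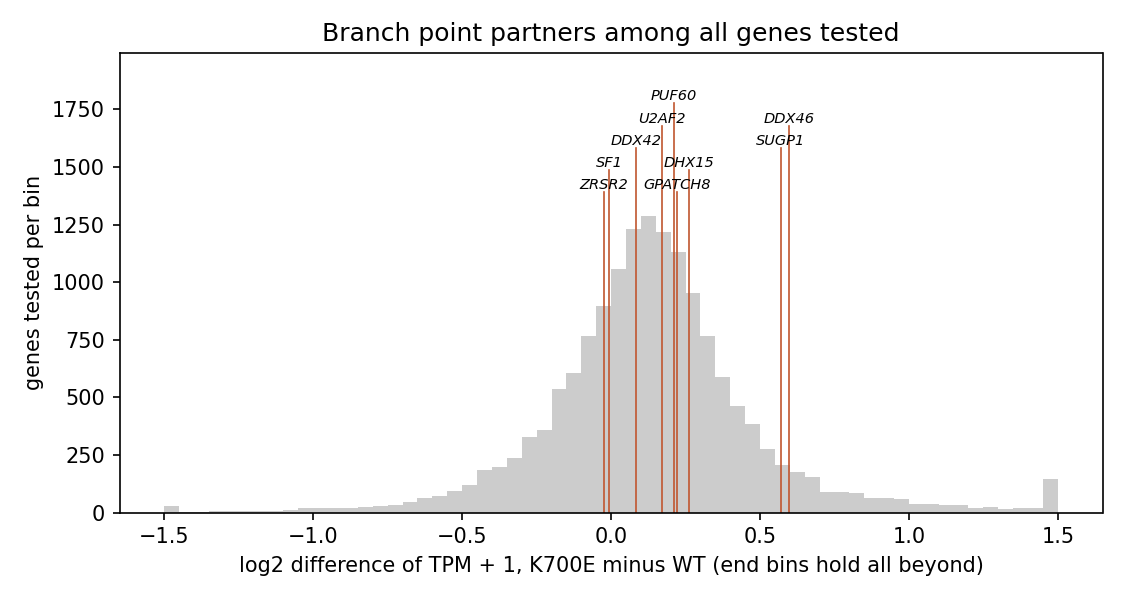
Histogram of log2 differences (K700E minus WT) over the 15493 genes tested, in grey, with the 9 measured genes as orange lines. SUGP1 and DDX46 lie in the upper tail, at the percentiles 91.7 and 92.4, and the other 7 lie between the percentiles 27.6 and 70.2.

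The low values of WT replicate 1 followed base composition. Over all tested genes, WT replicate 1 minus the mean of the other WT libraries had a median of 0.45 log2 units in 2320 genes with under 40% GC, and of -0.74 in 2013 genes with at least 60% GC. U2AF2 (61.1% GC) and PUF60 (62.6% GC) lay at -0.81 and -1.05, and SF1 (57.6% GC) at -0.24. Of the genes nearer the middle, GPATCH8 (45.6% GC) lay at 0.00, DDX42 (48.4% GC) at 0.19 and ZRSR2 (49.4% GC) at 0.25. The part of this shift in each difference between genotypes was not measured by itself. GC correction left SUGP1 and DDX46 at 0.42 and 0.46, and the other 7 between -0.18 and 0.13. It also re-centred each library, and moved the median gene from 0.13 to -0.01. TMM scaling, which has no GC term, gave 0.42 for SUGP1 and 0.44 for DDX46. GC correction without WT replicate 1 gave 0.43 for SUGP1 and 0.40 for DDX46, and no gene of the 9 passed.

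**Figure D4:**
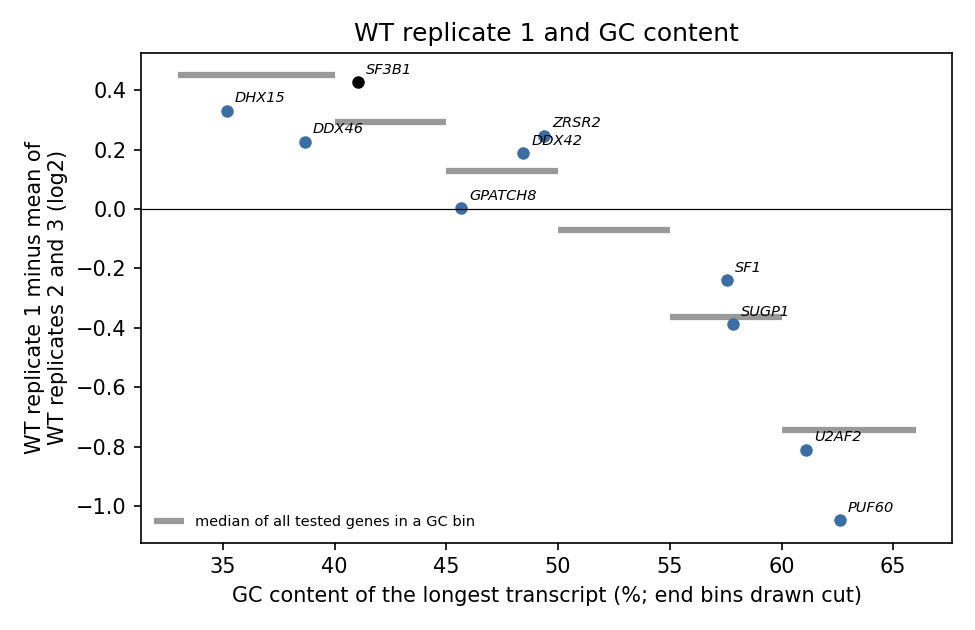
WT replicate 1 minus the mean of WT replicates 2 and 3 (log2) against the GC content of the longest transcript, for the 9 measured genes (blue) and SF3B1 (black), with grey bars at the median of all tested genes in each GC bin. The genes under 50% GC lie between 0.00 (GPATCH8) and 0.43 (SF3B1), and those above 55% GC between -0.24 (SF1) and -1.05 (PUF60, below its bar at -0.74).

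Ratios between genes of 1 library do not depend on how that library was scaled. A shift with GC content can still enter them where the paired genes differ in GC. SUGP1 has 57.8% GC, against 41.0% for SF3B1, 35.2% for DHX15 and 45.6% for GPATCH8. The ratios were not corrected for GC content. Of 7 ratios chosen, those with U2AF1 could not be computed, which left 5. The TPM ratio of GPATCH8 to SUGP1 was 1.54, 1.13 and 1.19 in WT and 0.968, 0.996 and 1.01 in K700E. Every K700E library was below every WT library, with a mean log2 difference of -0.36 (exact permutation test, two-sided, p = 0.1, the smallest that 3 against 3 can give, adjusted p = 0.25 over 5 ratios). Without WT replicate 1, the highest, the log2 difference was -0.23.

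The TPM ratio of DDX46 to SF3B1 was 0.342, 0.420 and 0.367 in WT and 0.529, 0.475 and 0.471 in K700E, again without overlap (log2 difference 0.39, exact permutation p = 0.1, adjusted p = 0.25). That of DDX42 to SF3B1 was 0.888, 1.11 and 0.997 in WT and 0.804, 0.907 and 1.02 in K700E, with overlap (log2 difference -0.13, exact permutation p = 0.5, adjusted p = 0.5). SUGP1 to SF3B1 was 0.166, 0.332 and 0.264 in WT and 0.298, 0.304 and 0.344 in K700E. Its groups overlapped (log2 difference 0.37, exact permutation p = 0.3, adjusted p = 0.375), and the log2 difference was 0.09 without WT replicate 1. DHX15 to SUGP1 was 8.22, 4.54 and 5.37 in WT and 5.01, 4.60 and 4.42 in K700E (log2 difference -0.33, exact permutation p = 0.3, adjusted p = 0.375), and -0.08 without WT replicate 1. Leaving out WT replicate 2 instead gave 0.59 for SUGP1 to SF3B1 and -0.51 for DHX15 to SUGP1. The size of both log2 differences thus depends on which of these WT libraries is kept.

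**Figure D5:**
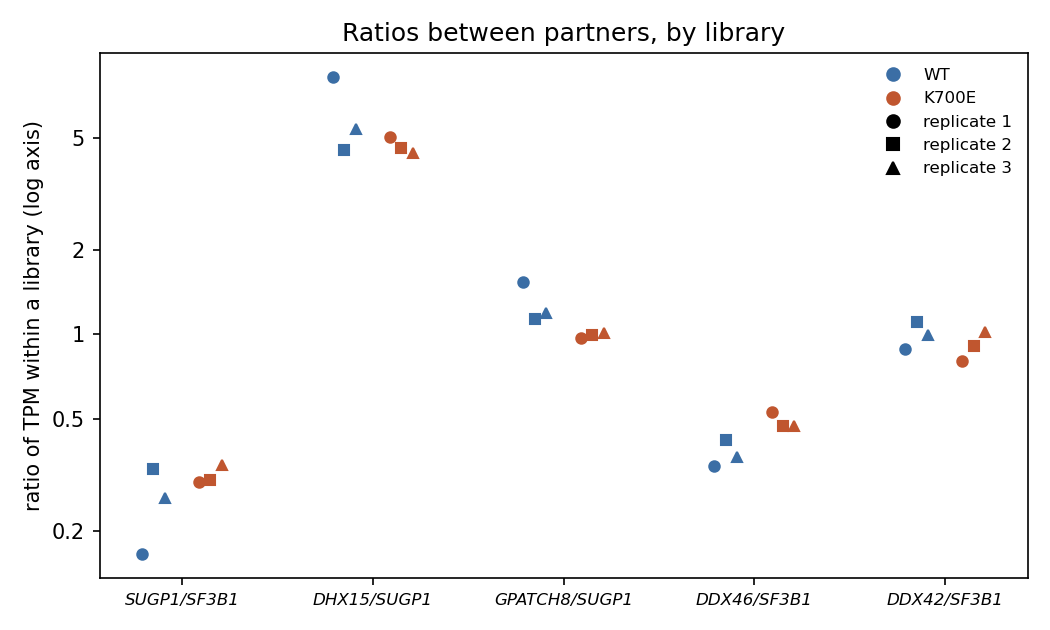
TPM ratio within each library on a log axis for 5 pairs, with WT in blue, K700E in orange and a marker shape for each replicate number. GPATCH8/SUGP1 and DDX46/SF3B1 are the pairs whose groups do not overlap, and WT replicate 1 is the extreme point of SUGP1/SF3B1 and DHX15/SUGP1.

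The promoters of SUGP1 and DDX46 are shown because these genes had the largest log2 differences of the 9. RefSeq promoters (GRCh38.p14, 250 bases before to 50 after the start) were matched for 9 of the 10 genes. Motifs searched on both strands were the ETS core CCGGAAGT, YY1 AAGATGGC, the CCAAT box CCAAT, and the longer motifs of NRF1 and ZNF143. Capitals mark the matches, ZNF143 and then a reversed CCAAT box in SUGP1, and DDX46 had no match.

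SUGP1 promoter, chr19:19320460-19320759, minus strand: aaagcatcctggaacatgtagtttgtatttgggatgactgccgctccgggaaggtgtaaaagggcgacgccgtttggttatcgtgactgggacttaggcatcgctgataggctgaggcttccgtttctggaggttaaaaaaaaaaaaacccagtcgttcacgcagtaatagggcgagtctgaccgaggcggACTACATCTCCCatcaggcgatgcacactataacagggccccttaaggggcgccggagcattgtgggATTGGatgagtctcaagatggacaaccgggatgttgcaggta

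DDX46 promoter, chr5:134758529-134758828, plus strand: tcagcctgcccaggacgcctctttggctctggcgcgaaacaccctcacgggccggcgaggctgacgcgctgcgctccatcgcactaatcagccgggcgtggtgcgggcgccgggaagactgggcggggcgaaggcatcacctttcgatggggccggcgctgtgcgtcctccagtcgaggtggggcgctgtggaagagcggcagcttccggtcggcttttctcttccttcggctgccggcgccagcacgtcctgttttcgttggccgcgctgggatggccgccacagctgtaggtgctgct

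The promoter of SUGP1 has a GC content of 52.0% and that of DDX46 of 68.7%. Of 35116 RefSeq promoters of this length, 1.75% hold the ZNF143 letters and 34.6% a CCAAT box. SUGP1 was the only 1 of the 9 matched genes with the ZNF143 letters, and SUGP1, DHX15 and SF1 held a CCAAT box. The ETS core stood in the promoter of U2AF2 (4.14% of all promoters) and the YY1 letters in that of ZRSR2 (2.89%), and no gene of the 9 had the NRF1 letters (1.24%).

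The lists of genes around these, chosen by known function, also had no member past the threshold. Of the 10 SF3a and SF3b subunits 0 were called higher or lower (median log2 difference 0.17, or 0.04 relative to the median gene). K700E lay above WT without overlap in 2 of the 10, SF3B3 and SF3B6, a share close to the 19.0% of all tested genes. SF3B3, a large scaffold subunit, had 84.3, 78.6 and 79.8 TPM in the WT libraries, and 114, 107 and 105 TPM in the K700E libraries (log2 difference 0.42, limma adjusted p 0.132). SF3B6, another SF3b subunit, had 502, 432 and 448 TPM in the WT libraries, and 618, 605 and 516 TPM in the K700E libraries. Its log2 difference was 0.33 (limma adjusted p 0.251). SF3B1 itself was 0.09 above the median gene in log2 difference (limma adjusted p 0.602).

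Of 18 other U2 snRNP and U2-associated genes 0 passed (median log2 difference 0.10, or -0.02 relative to the median gene). SNRPD3, a core Sm protein, had the smallest limma adjusted p, 0.288, with 31.8, 32.2 and 31.5 TPM in the WT libraries, and 38.6, 40.3 and 38.1 TPM in the K700E libraries. Of 21 other G-patch genes 20 were tested and 0 passed (median log2 difference 0.15, or 0.02 relative to the median gene). In 4 of the 20 the groups did not overlap and K700E was higher, close to the 19.0% of all tested genes. The smallest limma adjusted p were those of NKRF (log2 difference 0.40, limma adjusted p 0.296) and GPATCH4 (0.38, limma adjusted p 0.304).

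Of 15 other spliceosomal helicases 14 were tested and 0 passed (median log2 difference 0.12, or -0.01 relative to the median gene). EIF4A3, the helicase of the exon junction complex, had a log2 difference of 0.33 (limma adjusted p 0.302). DHX35 had lower values with K700E, 19.3, 16.1 and 18.03 TPM in the WT libraries and 14.7, 14.4 and 13.4 TPM in the K700E libraries (log2 difference -0.31, limma adjusted p 0.328), and it fell past the threshold with GC correction (-0.47, limma adjusted p 0.0457), a call that was lost when the same correction was run without WT replicate 1 or without WT replicate 3. DDX39B, the helicase that helps U2AF bring in U2 snRNP, was not tested. It was listed at 0.342 to 0.510 TPM with 89.3% of its exonic bases under other genes, so its level is not known from these values.

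Of 12 other readers of polypyrimidine tracts and branch points 0 passed (median log2 difference 0.06, or -0.07 relative to the median gene). KHDRBS1, an RNA-binding protein of the STAR family to which SF1 is related, had a log2 difference of 0.20 (limma adjusted p 0.447), and UHMK1, a kinase that phosphorylates SF1, of 0.26 (limma adjusted p 0.657). Of 13 minor spliceosome genes, the setting in which ZRSR2 works, 0 passed (median log2 difference 0.18, or 0.05 relative to the median gene). CRIPT and ZMAT5 had the smallest limma adjusted p, 0.358 and 0.393, with log2 differences of 0.47 and 0.35.

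Among 85 tested genes of these neighbouring lists, those whose library pattern was most like that of SUGP1 were PINX1, TFIP11, DHX16, ZMAT5 and GPATCH4. Likeness was the root-mean-square distance over the 6 libraries between log2(TPM + 1) values, each gene centred on its own mean, and it ran from 0.13 to 0.18 log2 units for these genes. The spread of SUGP1 about its own mean on the same scale was 0.32. PINX1, TFIP11 and GPATCH4 are G-patch proteins, as is SUGP1, DHX16 is a DEAH-box helicase and ZMAT5 a protein of the minor spliceosome. The G-patch list held 20 of the 85 genes compared, and others of its genes lay far from SUGP1. SUGP2 was at place 68 and GPATCH2L at place 79, so likeness to SUGP1 was not a trait of the list. Parts of the exons of ZMAT5 (42.2%), PINX1 (31.4%) and TFIP11 (27.7%) lay under other genes. Among the branch point genes themselves GPATCH8 was nearest to SUGP1, at 0.22, and ZRSR2 the farthest, at 0.38.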

How the data were processed

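Messenger RNA of 6 K562 libraries was sequenced, per the labels' protocols, and genotype labels gave the groups. The authors deposited TPM per gene in 1 table per genotype, with exon positions and gene lengths on GRCh37 (hg19) in the WT table. Cutadapt 2.10, TopHat2 2.1, featureCounts 2.0.1 and DESeq2 stand in the submitters' processing notes, while the WT column names end as those of STAR do. Which aligner and strand setting made each table is not given in the sources used here. All 595 genes fully covered on the opposite strand only were at 0 in all 6 libraries. Strand thus did not separate overlapping genes in either table. Any other difference in processing between tables cannot be told apart from genotype.

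Every library summed to 1000000, and 100% of values above 0, once multiplied by gene length, were whole multiples of 1 step per library (tolerance 0.01), from which read ends were recovered. They count ends and not molecules. Symbols were matched for 58561 of 62111 IDs (94.3%). GC content was that of the longest GENCODE 29 transcript, joined by gene ID (97.7% of tested genes). Log2(TPM + 1) values of genes averaging 1 TPM or more were tested by limma 3.58.1 under R 4.3.3 (trended empirical Bayes, two-sided, genotype as the only term). Fold changes on that scale understate those of low genes. Ratios were tested by exact permutation. On simulated data for this comparison (15493 genes) limma found 43.9% of the 2-fold changes and 87.2% of the 4-fold changes, and 4.66% of its calls were false. The simulated noise was independent between genes, unlike the shift of WT replicate 1 with GC content. These shares therefore may not hold for the real libraries.

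The genes, the lists around them and the tests were chosen with earlier results of these data known. Named genes are the 10, SF3B1, up to 2 genes per list by smallest adjusted p, and the 5 most like SUGP1. Some genes taken this way are not reported here. DHX35 with GC correction and DDX39B were added after their values were seen. Alternatives were other pseudocounts, filters and scalings, no trend, the replicate number as a block, each library left out, limma-voom on recovered reads (TMM factors computed directly in R) and a loess correction on GC content. GC correction without WT replicate 1 or 3 was added after the data were seen. Tables and figures were made with Python 3.11.15, pandas 2.3.3, scipy 1.17.1 and matplotlib 3.10.9.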

Additional observations from a re-analysis of the deposited data

How the results depend on the processing

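None of the 9 tested genes passed the threshold in any of the 18 alternatives, and the lists around them had a call only with GC correction (1 helicase lower, DHX35, and 0 with that correction without WT replicate 1 or WT replicate 3). SUGP1, DDX46, DHX15 and GPATCH8 kept a log2 difference above 0 in all 18, over ranges of 0.39 to 0.66, 0.40 to 0.73, 0.08 to 0.37 and 0.02 to 0.25. DDX42 reversed with TMM scaling (-0.069), median-ratio scaling (-0.098), limma-voom (-0.071), GC correction (-0.073) and GC correction without WT replicate 1 (-0.035) or WT replicate 3 (-0.091). U2AF2 reversed with median-ratio scaling (-0.014) and with GC correction without WT replicate 1 (-0.0085). Leaving out 1 library gave -0.10 to 0.36 for U2AF2 and -0.14 to 0.49 for PUF60, both reversed without WT replicate 1. It gave -0.092 to 0.057 for ZRSR2, reversed without WT replicate 1 or K700E replicate 3 (0.050), and -0.087 to 0.056 for SF1, reversed without WT replicate 2 or WT replicate 3 (0.011). The cause was not tested. Over all genes, where 178 were higher and 36 lower, the counts were 110 and 41 with TMM scaling, 111 and 48 with median-ratio scaling, 73 and 19 with a filter at 5 TPM, 0 and 0 with no filter (4891 at an unadjusted p under 0.05), 246 and 102 with limma-voom, 268 and 221 with GC correction, and 112 and 91 with GC correction without WT replicate 1. GC correction without WT replicate 3 gave 0 and 0 (1970 at an unadjusted p under 0.05). Leaving out 1 library gave 0 to 144 higher and 0 to 38 lower, with 0 and 0 without WT replicate 3 (1462 unadjusted). The replicate block gave 59 and 8 and changed no call among the 9 genes. Same-numbered libraries deviated together for numbers 1 and 3 (r of 0.28 and 0.30 across genes) and not for 2 (-0.19). Differently numbered libraries ran from -0.48 to 0.43. Deviations were taken from the mean of each group of 3, which ties these r to each other. Whether the numbers pair the libraries thus cannot be told from them. No ratio changed direction. Depth limits none of the 9 genes, and overlap of gene models limits U2AF1.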
